A study of Caenorhabditis elegans with 35 samples.

Results

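The histone lysine demethylases described here are 6 genes of Caenorhabditis elegans. They are spr-5, lsd-1 and amx-1 of the amine oxidase family and rbr-2, utx-1 and jmjd-2 of the Jumonji C (JmjC) family. They were found on the arrays by gene symbol or sequence name, and were chosen with earlier results of these data known. Each was measured by 1 probe set, which makes 6 of the 20806 probe sets that are not controls. Of the 6, utx-1 is named by the deposited symbol alone, and the other 5 also by their transcript accession.

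Histone lysine demethylases remove methyl groups from histone tails, the marks that methyltransferases place. Enzymes of the amine oxidase family, related to mammalian LSD1, act on mono- and dimethylated lysine 4 of histone H3, a mark of active chromatin. JmjC enzymes use oxygen, iron and 2-oxoglutarate, and their targets differ between members. RBR-2 removes trimethylation of lysine 4, UTX-1 removes methylation of lysine 27, a Polycomb mark, and JMJD-2 acts on trimethylated lysines 9 and 36. In C. elegans, spr-5, lsd-1, rbr-2 and utx-1 have been studied for lifespan or for the passage of chromatin marks through the germline.

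Expression was measured on 35 arrays of RNA from whole larvae of the L3 stage, in generations F4 and F5. In each generation, worms labelled +/+ (from +/+) were wild type with wild-type ancestors, worms labelled +/+ (from wdr-5) were wild type at the locus but had wdr-5 mutant ancestors, and the third group was homozygous for the wdr-5 mutation. wdr-5, listed on the array as wdr-5.1, encodes a core subunit of the complex that methylates lysine 4 of histone H3. By the title of the series, the question is whether longevity passes through generations without the mutation. There were 6 arrays a group, 3 from each of 2 birth days, apart from the F5 +/+ from wdr-5 group, which had 5 with 2 from birth day 1. The allele, the number of lines and the number of animals pooled in each lysate are not given in the sources used here. No label says that arrays of a group came from separate cultures, so p-values measure the spread between these arrays, which may be technical. Because whole animals were lysed, fewer cells of a type and less RNA per cell cannot be told apart.

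The values are RMA log2 intensities, on which 1 unit is a doubling, and levels of different genes are not compared. wdr-5.1 was checked first: it was lower by limma's test in the mutants by -3.63 ± 0.14 log2 (SE, n = 6 and 6, adjusted p = 1.12e-18) in F4 and by -3.77 ± 0.14 (adjusted p = 4.21e-19) in F5. All mutant arrays lay below every same-day array of the other groups of their generation. Low values spread differently on the birth days: the 5th percentile of an array lay between 3.04 and 3.23 on day 1 (17 arrays) and between 4.12 and 4.21 on day 2 (18 arrays). They are read as normalized separately, so levels are given by day. The number of arrays limits the precision, and a difference is called where its adjusted p over all probe sets is under 0.05. Where groups are described as apart on 1 birth day alone, the share of all probe sets that were so was not counted.

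Gene lists for reproductive stage and for the moulting cycle moved with the groups. Of 16 oocyte and eggshell genes, 15 rose in F5 mutants against F5 +/+ from +/+ (median difference 1.41 log2), as did 21 of 28 germline genes (0.39), 15 of 17 sperm genes (0.82) and 6 of 6 vitellogenins (1.99), while 17 of 22 moulting cycle genes fell (-0.53). In F4 mutants, 0 of 16 oocyte and eggshell genes, 1 of 28 germline genes (lower), 3 of 17 sperm genes (higher) and 3 of 22 moulting genes (lower) were called over both days. These counts join opposite differences on the 2 days. The mean of the oocyte and eggshell list in F4 mutants was 9.50 log2 against 7.91 in F4 +/+ from +/+ on day 1 and 8.12 against 9.26 on day 2, and that of the vitellogenins was 10.90 against 9.08 and 9.22 against 10.92. The moulting list mean was 7.99 against 8.39 on day 1 and 8.43 against 8.18 on day 2. Between generations in +/+ from +/+, 14 oocyte and eggshell genes and 16 germline genes were lower in F5, and 12 moulting genes were higher. The mean of the oocyte and eggshell list reached 9.52, 9.15 and 9.79 log2 in F5 mutant replicates 1, 4 and 5, against 7.94, 8.26 and 7.95 in replicates 2, 3 and 6 and 7.18 to 7.72 in F5 +/+ from +/+. What these lists contribute to the results below was not tested beyond the fits given beside them.

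**Figure D1:**
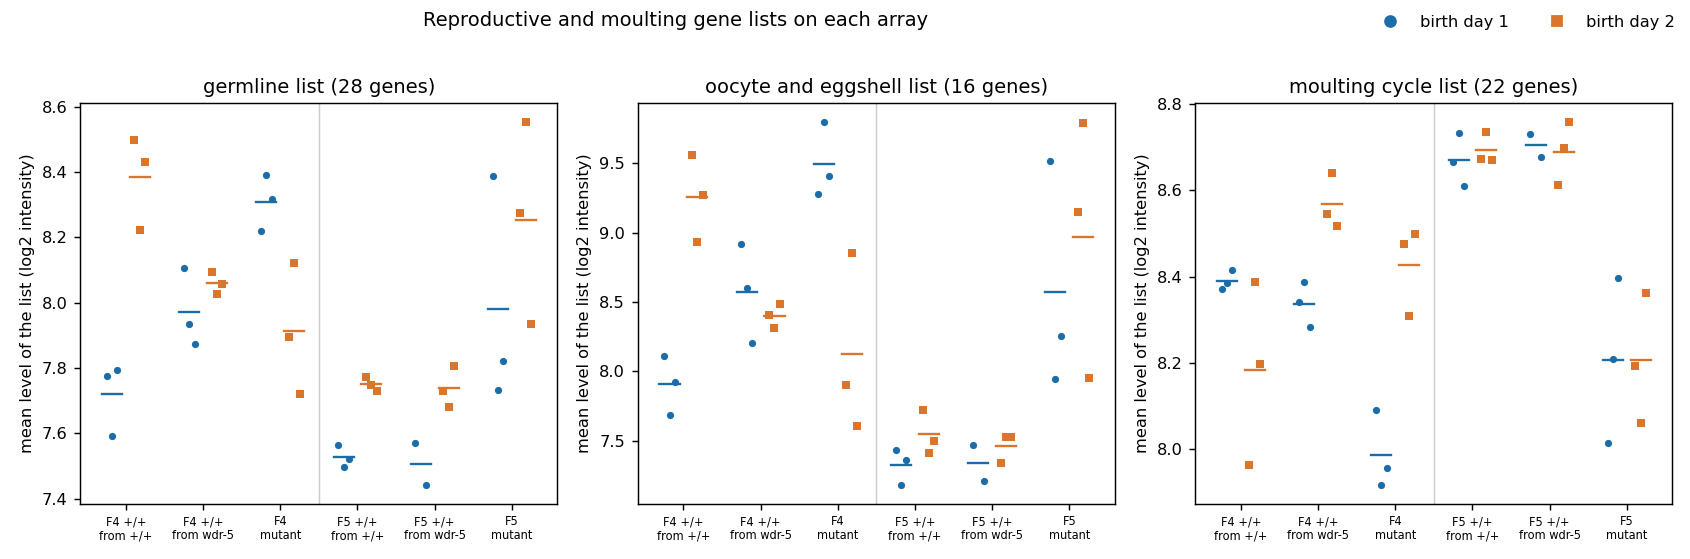
Mean log2 intensity (y axis) of the germline, oocyte and eggshell, and moulting cycle lists on each array, by group (x axis) and birth day (blue circles day 1, orange squares day 2; lines are means of a group and day). On day 1 the F4 mutants lie above F4 +/+ from +/+ in the germline list (8.22 to 8.39 against 7.59 to 7.79), and on day 2 they lie below it (7.72 to 8.12 against 8.22 to 8.50).

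Of the 6 demethylases, utx-1 was called higher in wdr-5 mutants of both generations, and rbr-2 in those of F5 but not of F4. The rbr-2 call was lost in several alternative fits, given below. None was called lower in any comparison over both days, apart from spr-5 from F4 to F5 in +/+ from +/+ under array weights. In F4 mutants against F4 +/+ from +/+, 1 of 6 (utx-1) rose, where 4.77% of all probe sets were called higher and 10.3% in either direction. In F5 mutants, 2 of 6 (utx-1 and rbr-2) rose, where 16.9% of all probe sets were called higher. The median difference of the 6 was 0.15 log2 in F4 and 0.15 in F5, and that of all probe sets was -0.021 and -0.035. The share of members called in F5 rests on 2 genes against a background in which 33.1% of probe sets changed in either direction. The comparisons of mutants with either wild-type group share the mutant arrays, and comparisons between generations share arrays with both.

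**Figure D2:**
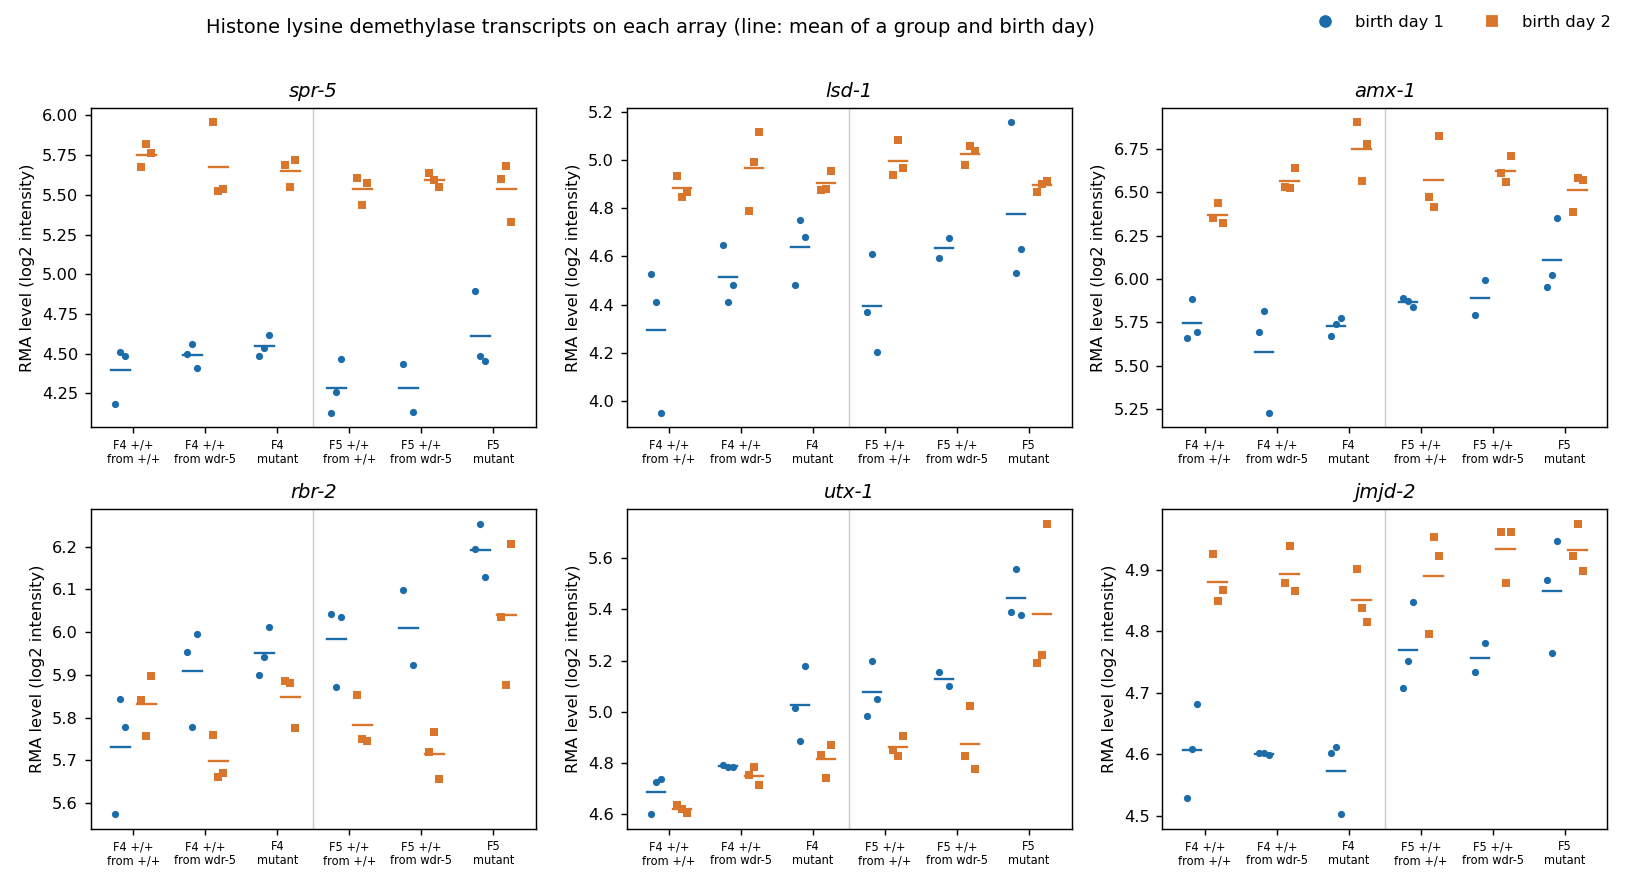
RMA log2 intensity (y axis) of each demethylase on every array, by group (x axis), with blue circles for birth day 1, orange squares for birth day 2 and lines for the mean of a group and day. For utx-1 the F5 mutants lie highest on both days, at 5.38 to 5.56 on day 1 and 5.19 to 5.73 on day 2, and for spr-5 the days lie apart, at 4.13 to 4.90 and 5.33 to 5.96.

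utx-1 encodes the lysine 27 demethylase, which is also a subunit of the SET-16 type methyltransferase complex for lysine 4. In F4 the mutants read 5.02, 4.89 and 5.18 on day 1 against 4.60, 4.73 and 4.74 in +/+ from +/+, and 4.83, 4.74 and 4.87 on day 2 against 4.64, 4.62 and 4.61. All 6 mutant arrays lay above every same-day array of +/+ from +/+, a pattern that 2.27% of all probe sets showed. utx-1 rose by 0.27 ± 0.072 log2 (SE, n = 6 and 6, 95% confidence interval 0.12 to 0.41, 1.202-fold, limma adjusted p = 0.0158). Within day 1 the difference was 0.34 ± 0.10 (adjusted p = 0.0110), and within day 2 it was 0.19 ± 0.10 (adjusted p = 0.241). On day 1 the call was lost without F4 mutant replicate 3 (0.26, adjusted p = 0.0821) or F4 +/+ from +/+ replicate 1 (0.29, adjusted p = 0.0542), and the oocyte list stood higher in these mutants on day 1 and lower on day 2, as given above, which was not tested as a part of the result. The 2 days were not shown to differ (difference 0.14 ± 0.14, adjusted p = 0.453). Over the 6 members 0 differed between days in this comparison, where 33% of all probe sets did. The call was lost without F4 mutant replicate 3 (0.22, adjusted p = 0.0592), with no birth day term (0.27, adjusted p = 0.176) and on day 2 alone (0.19, adjusted p = 0.270).

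In F5 the mutants read 5.39, 5.56 and 5.38 on day 1 against 4.99, 5.198 and 5.05 in +/+ from +/+, and 5.19, 5.22 and 5.73 on day 2 against 4.85, 4.83 and 4.90. Again the groups did not overlap on either day, as in 8.48% of all probe sets. The rise of utx-1 was 0.44 ± 0.072 log2 (n = 6 and 6, interval 0.30 to 0.59, 1.36-fold, limma adjusted p = 3.05e-05). It was 0.36 ± 0.10 (adjusted p = 0.00868) on day 1 and 0.52 ± 0.10 (adjusted p = 6.68e-04) on day 2. The call held in all 13 alternative settings and in all 12 fits that left out 1 array of either group, where the difference was 0.36 to 0.47. Without replicates 1, 4 and 5, left out after seeing their oocyte and eggshell values, the difference was 0.57 ± 0.084 (adjusted p = 2.45e-05). The 13 settings include the germline list mean and the moulting list mean as covariates. The part of the oocyte and eggshell, sperm and vitellogenin lists in the rise was not tested. The F5 difference was not shown to exceed the F4 one (F4 minus F5 -0.18 ± 0.10, adjusted p = 0.440), where 0 of 6 members and 0.00961% of probe sets differed. The mean of both differences was 0.35 ± 0.051 (n = 12 and 12, adjusted p = 3.11e-06). By that mean 2 of 6 members rose, rbr-2 being the other (0.18, adjusted p = 0.00438), where 18.8% of all probe sets were called higher, 21.6% lower and 40.4% in either direction. Probe sets called higher in mutants of both generations, of which utx-1 is 1, made up 3.51% of all.

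Among the wild-type descendants of mutants, utx-1 was not called, nor was any other probe set. Of the members, only utx-1 had F4 arrays above those of the control lineage on both days. F4 +/+ from wdr-5 read 4.79, 4.78 and 4.78 on day 1 and 4.75, 4.79 and 4.71 on day 2, against 4.60 to 4.74 and 4.61 to 4.64 in F4 +/+ from +/+. All 6 arrays lay above every same-day array of +/+ from +/+, which 48 of the 20806 probe sets (0.231%) did. The values of replicates 2 and 3 of these descendants were identical (4.784577987). The fitted difference was 0.11 ± 0.072 log2 (n = 6 and 6, interval -0.033 to 0.26, limma adjusted p = 0.999). On those arrays the moulting list mean was 8.28 to 8.39 on day 1 and 8.52 to 8.64 on day 2, against 8.37 to 8.41 and 7.96 to 8.39 in F4 +/+ from +/+, and its part was not tested. In F5 the descendants read 5.16 and 5.0997 on day 1 and 4.83, 5.02 and 4.78 on day 2, overlapping F5 +/+ from +/+ on both days (0.024 ± 0.076, n = 5 and 6, interval -0.13 to 0.18).

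Against these descendants, F5 mutants also had higher utx-1, by 0.42 ± 0.076 log2 (n = 6 and 5, 1.34-fold, limma adjusted p = 1.44e-04), and all 6 arrays lay above every same-day descendant array, as in 8.45% of probe sets. With rbr-2, 2 of 6 demethylases were called higher here, where the background was 14.8% higher and 30.3% in either direction. In F4 the same difference was 0.15 ± 0.072 (n = 6 and 6, adjusted p = 0.184), and 0 of 6 members were called, against 11.8% of all probe sets in either direction (limma counted 5160 probe sets at an unadjusted p under 0.05). On day 1 fitted alone, the F5 difference was 0.32 (adjusted p = 0.0562).

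**Figure D3:**
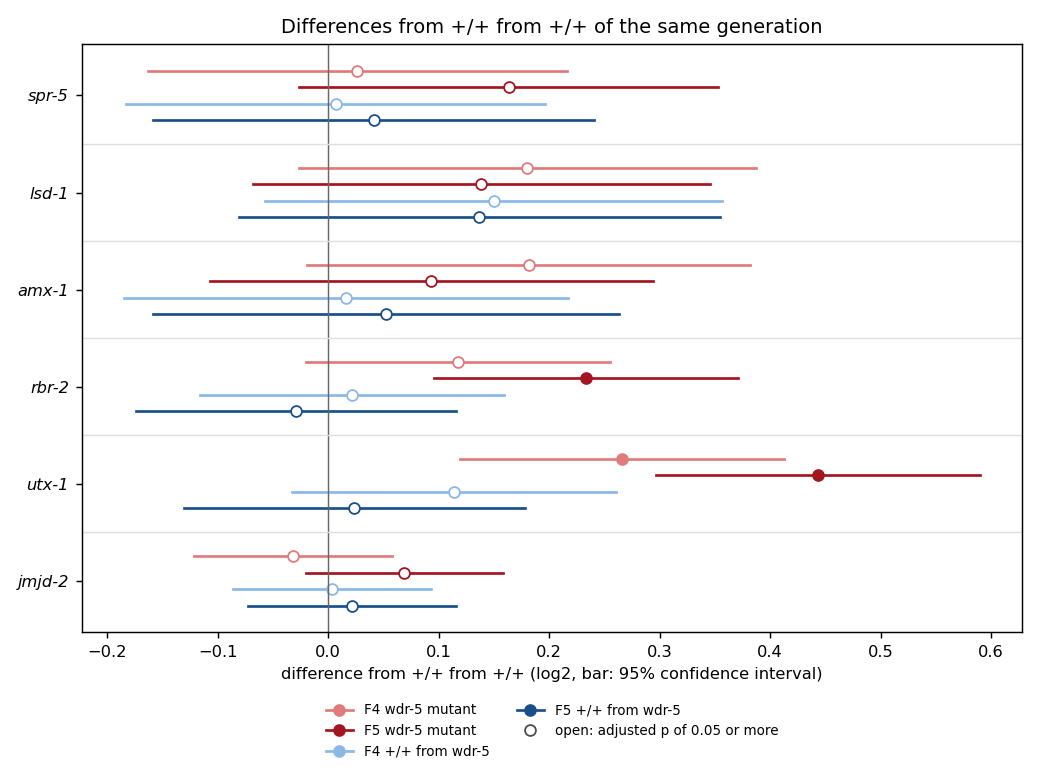
Fitted difference in log2 intensity (x axis) of each demethylase (y axis) from +/+ from +/+ of the same generation, for mutants (reds) and for +/+ from wdr-5 (blues); bars are 95% confidence intervals and filled points have an adjusted p under 0.05. The filled points are utx-1 in F4 (0.27) and F5 (0.44) mutants and rbr-2 in F5 mutants (0.23), and every interval of the descendants includes 0.

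utx-1 was also higher in F5 than in F4 in the mutants and in both wild-type groups, which share a genotype and differ in ancestry. In +/+ from +/+ it rose by 0.31 ± 0.072 log2 (n = 6 and 6, 1.24-fold, limma adjusted p = 0.00273), with all 6 F5 arrays above every same-day F4 array. This was 1 of 6 members, where 16.8% of all probe sets were called higher and 10.6% did not overlap. In +/+ from wdr-5 the rise was 0.22 ± 0.076 (n = 5 and 6, adjusted p = 0.0302), again 1 of 6 members where 20% of probe sets were called higher and 24.7% in either direction, and F5 replicate 6 (4.78) lay within the F4 range of day 2. In mutants it was 0.49 ± 0.072 (n = 6 and 6, 1.41-fold, adjusted p = 2.85e-05), and all 6 F5 arrays lay above the F4 arrays of their day, as in 3.46% of probe sets.

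The generation rise in the mutants was 0.42 ± 0.10 (adjusted p = 0.00226) on day 1 and 0.57 ± 0.10 (adjusted p = 3.52e-04) on day 2. The rise in +/+ from +/+ was lost with no birth day term (0.31, adjusted p = 0.0539), on day 2 alone (0.24, adjusted p = 0.133) and with the moulting list mean as a covariate (adjusted p = 0.0776). That in +/+ from wdr-5 was lost in 7 of 12 alternative settings and without any 1 of F4 replicates 1, 2 and 3 or F5 replicates 1, 2 and 5, where the adjusted p reached 0.0822.

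The group means of utx-1 had the same order on both days. From lowest to highest they were F4 +/+ from +/+ (4.69 ± 0.08, SD, n = 3, on day 1 and 4.62 ± 0.02, n = 3, on day 2), F4 +/+ from wdr-5 (4.79 and 4.75), F4 mutants (5.03 and 4.82), F5 +/+ from +/+ (5.08 and 4.86), F5 +/+ from wdr-5 (5.13 and 4.88) and F5 mutants (5.44 ± 0.10, n = 3, and 5.38 ± 0.31, n = 3). On both days the arrays of F4 +/+ from +/+ lay below those of F4 +/+ from wdr-5, and those of F5 +/+ from wdr-5 lay below the F5 mutants. F4 +/+ from wdr-5 lay below the F4 mutants on day 1 and overlapped them on day 2. F4 mutants overlapped F5 +/+ from +/+, and the latter overlapped F5 +/+ from wdr-5, on both days.

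**Figure D4:**
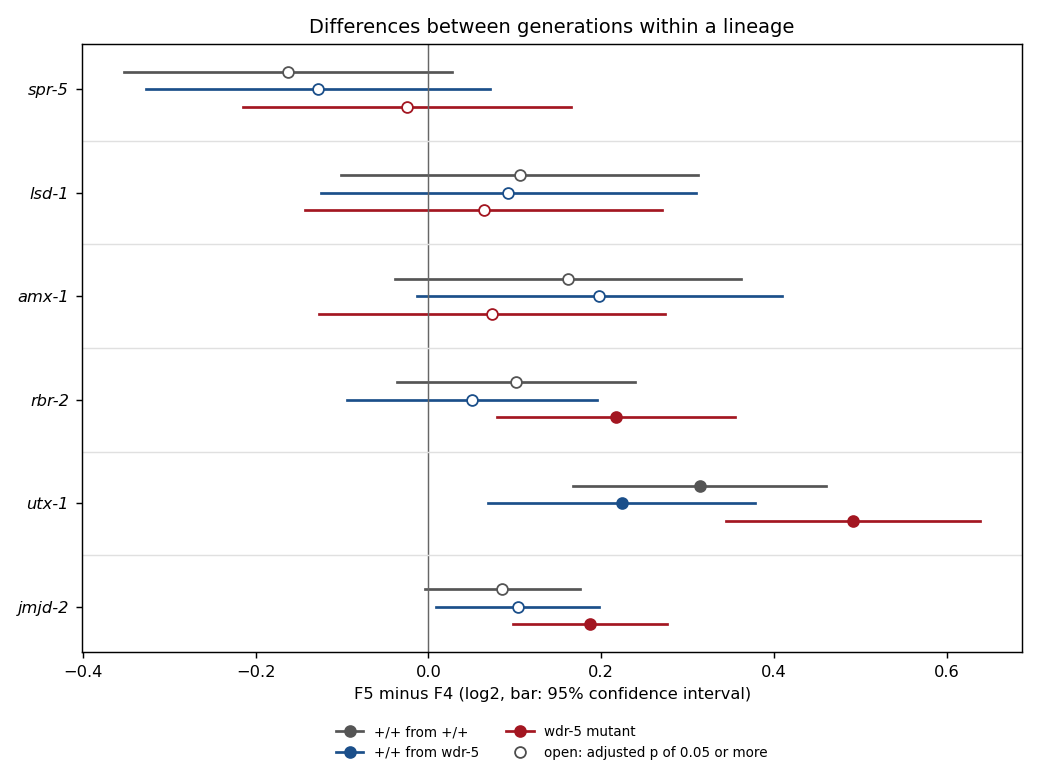
Difference in log2 intensity between F5 and F4 (x axis) for each demethylase (y axis) in +/+ from +/+ (grey), +/+ from wdr-5 (blue) and mutants (red); bars are 95% confidence intervals and filled points have an adjusted p under 0.05. utx-1 is filled in all 3 groups (0.31, 0.22 and 0.49), rbr-2 (0.22) and jmjd-2 (0.19) in mutants only, which is no test of a difference between groups.

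rbr-2 encodes the demethylase of trimethylated lysine 4, which removes the mark that the WDR-5 complex helps to place. In F5 the mutants read 6.20, 6.25 and 6.13 on day 1 against 6.04, 5.87 and 6.04 in +/+ from +/+, and 6.04, 5.88 and 6.21 on day 2 against 5.85, 5.75 and 5.75. All 6 mutant arrays lay above every same-day control, by as little as the step from 5.85 to 5.88 on day 2. Such a lack of overlap on both days was found in 8.48% of all probe sets. rbr-2 rose by 0.23 ± 0.068 log2 (n = 6 and 6, interval 0.096 to 0.37, 1.18-fold, limma adjusted p = 0.00864). Within day 1 the difference was 0.21 ± 0.090 (adjusted p = 0.0873), and within day 2 it was 0.26 ± 0.090 (adjusted p = 0.0432), where rbr-2 and utx-1 were 2 of 6 members called beside 19.1% of all probe sets. The day 2 call was lost without any 1 of F5 mutant replicates 4 and 6 or F5 +/+ from +/+ replicates 5 and 6, where the difference was 0.17 to 0.26 and the adjusted p 0.0792 to 0.199. The call over both days was lost with no birth day term (adjusted p = 0.0708), with the germline list as a covariate (0.20, adjusted p = 0.0969), with the moulting list as a covariate (0.13, adjusted p = 0.472) and on day 1 (adjusted p = 0.151) or day 2 alone (adjusted p = 0.0540). Without F5 mutant replicates 1, 4 and 5 it held (0.28, adjusted p = 0.0197).

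In F4 the mutants read 5.90, 5.94 and 6.01 on day 1 and 5.89, 5.88 and 5.77 on day 2, against 5.57, 5.84 and 5.78 and then 5.84, 5.76 and 5.90 in +/+ from +/+. The groups were apart on day 1 and overlapped on day 2, and the difference of 0.12 ± 0.068 did not pass the test (adjusted p = 0.256). The F4 descendants read 5.95, 5.78 and 5.99 on day 1 and 5.76, 5.66 and 5.67 on day 2, which gave 0.022 ± 0.068 over both days. The F5 descendants read 6.10 and 5.92 and then 5.72, 5.77 and 5.66, and their difference was -0.029 ± 0.071. Against those descendants the F5 mutants were higher by 0.26 ± 0.071 (n = 6 and 5, limma adjusted p = 0.00592). All 6 mutant arrays lay above every same-day descendant array, as in 8.45% of all probe sets. The call was lost with the germline (adjusted p = 0.0741) or moulting covariate (0.15, adjusted p = 0.410) and on day 1 alone (adjusted p = 0.297).

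Between generations, rbr-2 rose in the mutants by 0.22 ± 0.068 log2 (n = 6 and 6, limma adjusted p = 0.0242), with 5 of 6 F5 arrays above every same-day F4 array. With utx-1 and jmjd-2 this made 3 of 6 members called higher from F4 to F5 mutants, where 13.5% of all probe sets were. The differences were 0.10 ± 0.068 in +/+ from +/+ (adjusted p = 0.285) and 0.051 ± 0.071 in +/+ from wdr-5 (adjusted p = 0.628). The call in mutants was lost without F4 mutant replicate 6 (adjusted p = 0.0540) or F5 mutant replicate 6 (adjusted p = 0.0828) and in 6 of 13 alternative settings.

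jmjd-2 encodes the demethylase of lysines 9 and 36, and it had the smallest residual SD of the 6, at 0.057 log2. Only 1.12% of all probe sets had a smaller one. Its values stood between the 37.7 and 42.8 percentiles of their arrays on day 1 and the 34.4 and 40.2 percentiles on day 2. On day 1 its value was identical (4.602230015) on F4 +/+ from wdr-5 replicates 1 and 2 and F4 mutant replicate 1. Whether the low level or such equal values narrowed the spread was not tested. The F4 mutants read 4.60, 4.61 and 4.50 on day 1 and 4.90, 4.84 and 4.81 on day 2, and the F5 mutants read 4.88, 4.76 and 4.95 and then 4.92, 4.98 and 4.90. On day 1 the generations were apart, and on day 2 the lowest F5 array (4.90) lay beside the highest F4 array (4.90). jmjd-2 was higher in F5 mutants by 0.19 ± 0.044 (n = 6 and 6, interval 0.098 to 0.28, 1.14-fold, limma adjusted p = 0.00372). The difference was 0.29 ± 0.065 on day 1 (adjusted p = 0.00102) and 0.081 ± 0.065 on day 2 (adjusted p = 0.413), and the gap between days was 0.21 ± 0.092 (adjusted p = 0.0689). In this comparison 4 of 6 members were called within day 1 (utx-1, rbr-2, jmjd-2 and amx-1), where 37.4% of all probe sets were called in either direction, and 1 of 6 (utx-1) within day 2, where 18.1% were. With each array of day 1 left out in turn, utx-1 and jmjd-2 kept their day 1 calls. That of rbr-2 was lost without any 1 of F4 mutant replicates 1 and 2 or F5 mutant replicates 1 and 2 (0.21 to 0.24). The call was lost with no birth day term (adjusted p = 0.486), with only the groups compared in the fit (adjusted p = 0.0563) and on day 2 alone (adjusted p = 0.369).

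In the wild-type groups the generation difference of jmjd-2 was 0.086 ± 0.044 (+/+ from +/+, adjusted p = 0.158) and 0.10 ± 0.046 (+/+ from wdr-5, adjusted p = 0.0955). On day 1 the F5 arrays of both (4.71, 4.75 and 4.85, and 4.73 and 4.78) lay above all F4 arrays of their ancestry (4.53, 4.61 and 4.68, and 4.60 on each of 3), while on day 2 they overlapped them. Of all probe sets, 61.5% and 68.3% had a positive fitted difference from F4 to F5 in these groups, in that order. Mutants and +/+ from +/+ overlapped on both days in both generations, with differences of -0.032 ± 0.044 in F4 (interval -0.12 to 0.057) and 0.069 ± 0.044 in F5 (interval -0.021 to 0.16).

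spr-5, the LSD1 homolog whose loss in C. elegans lets methylated lysine 4 accumulate over generations, was called in none of the 11 comparisons. The F4 mutants read 4.49, 4.54 and 4.62 on day 1 and 5.69, 5.55 and 5.72 on day 2, against 4.18, 4.51 and 4.49 and then 5.67, 5.82 and 5.76 in +/+ from +/+. The groups overlapped on both days, and the difference was 0.026 ± 0.093 log2 (n = 6 and 6, interval -0.16 to 0.22). The F5 mutants read 4.90, 4.48 and 4.46 and then 5.60, 5.68 and 5.33, against 4.13, 4.26 and 4.46 and then 5.60, 5.43 and 5.58. Replicates 1 and 6 of these mutants were the highest and the lowest of their days over both groups. The F5 difference was 0.16 ± 0.093 (interval -0.026 to 0.35, limma adjusted p = 0.175), and 1 array moved it in either direction: it was 0.23 (adjusted p = 0.0456) without F5 mutant replicate 6 and 0.078 (adjusted p = 0.524) without F5 mutant replicate 1. A rise of up to 0.35 log2 in F5 mutants lies within the interval.

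In the descendants spr-5 read 4.50, 4.56 and 4.41 and then 5.96, 5.52 and 5.54 in F4, and 4.43 and 4.13 and then 5.63, 5.59 and 5.55 in F5. Both groups overlapped their controls, with differences of 0.0068 ± 0.093 and 0.041 ± 0.098. From F4 to F5 the differences were -0.16 ± 0.093 in +/+ from +/+ (adjusted p = 0.210, and -0.20 with adjusted p = 0.0499 under array weights, a call of lower spr-5), -0.13 ± 0.098 in +/+ from wdr-5 and -0.025 ± 0.093 in mutants.

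lsd-1, the other LSD1 homolog, for which knockdown has been reported to lengthen life in C. elegans, was called in none of the 11 comparisons over both days. The F4 mutants read 4.48, 4.75 and 4.68 on day 1 and 4.88, 4.88 and 4.95 on day 2, against 4.53, 4.41 and 3.95 and then 4.93, 4.85 and 4.87 in +/+ from +/+. Replicate 3 of these controls, at 3.95, was the lowest of all 35 arrays. The difference was 0.18 ± 0.10 log2 (n = 6 and 6, interval -0.026 to 0.39, limma adjusted p = 0.247), and without that array it was 0.091 (adjusted p = 0.571). The F5 mutants read 5.16, 4.53 and 4.63 and then 4.87, 4.90 and 4.91, against 4.37, 4.61 and 4.20 and then 4.94, 5.08 and 4.97. Replicate 1, at 5.16, was the highest array on day 1, and on day 2 all 3 mutants lay below the 3 controls. The F5 difference was 0.14 ± 0.10 (interval -0.068 to 0.35, adjusted p = 0.296). Without mutant replicate 1 it was 0.029 (adjusted p = 0.831), and without F5 +/+ from +/+ replicate 3 it was 0.072 (adjusted p = 0.615).

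Within day 1, lsd-1 was higher in F4 mutants by 0.34 ± 0.13 (limma adjusted p = 0.0409) and in F5 mutants by 0.38 ± 0.13 (adjusted p = 0.0318). With utx-1 these made 2 of 6 members called on day 1 in each generation, where 36.6% and 25.2% of all probe sets were called in either direction. These tests took the spread from all groups and both days. With day 1 fitted alone, lsd-1 was called in neither generation. Over all alternative settings it was called in 0 of 12 in F4 and 0 of 13 in F5 (lowest limma adjusted p = 0.127 and 0.117). Each day 1 call of lsd-1 also rested on single arrays. In F4 it was lost without F4 +/+ from +/+ replicate 3 (0.17, adjusted p = 0.308), F4 mutant replicate 2 (0.29, adjusted p = 0.135) or F4 mutant replicate 3 (0.32, adjusted p = 0.112). In F5 it was lost without F5 mutant replicate 1 (0.19, adjusted p = 0.353) or F5 +/+ from +/+ replicates 1 (0.37, adjusted p = 0.0824) or 3 (0.28, adjusted p = 0.169). On day 2 the differences of lsd-1 were 0.019 ± 0.13 in F4 and -0.10 ± 0.13 in F5. The mean of the oocyte list in F4 mutants was 9.50 against 7.91 on day 1 and 8.12 against 9.26 on day 2. In F5 mutants it was 8.57 against 7.32 and then 8.97 against 7.54. The part of this list was not tested. The days were not shown to differ, with adjusted p = 0.179 in F4 and 0.403 in F5. The descendants read 4.65, 4.41 and 4.48 and then 4.79, 4.99 and 5.11 in F4 (0.15 ± 0.10), and 4.60 and 4.68 and then 4.98, 5.06 and 5.03 in F5 (0.14 ± 0.11), overlapping their controls on both days.

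amx-1, a further amine oxidase of the LSD1 family, was likewise called in none of the 11 comparisons over both days. The F4 mutants read 5.67, 5.74 and 5.77 on day 1 and 6.91, 6.56 and 6.78 on day 2, against 5.66, 5.88 and 5.69 and then 6.35, 6.44 and 6.32 in +/+ from +/+. They overlapped on day 1 and stood apart on day 2, where amx-1 was higher by 0.38 ± 0.13 log2 (limma adjusted p = 0.0434), the 1 member of 6 called on that day where 13.4% of probe sets were. That call was lost without any 1 array of the 2 groups other than F4 mutant replicate 5, with differences of 0.30 to 0.41. On the same day the oocyte list was lower in these mutants (8.12 against 9.26), and its part was not tested. Over both days the difference was 0.18 ± 0.098 (n = 6 and 6, adjusted p = 0.230). The F5 mutants read 5.95, 6.03 and 6.35 and then 6.39, 6.59 and 6.57, against 5.89, 5.87 and 5.84 and then 6.47, 6.42 and 6.82. They were above the controls on day 1 and overlapped them on day 2 (0.093 ± 0.098 over both days, adjusted p = 0.480).

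The difference of amx-1 between F5 and F4 mutants turned between the birth days. It was 0.38 ± 0.13 log2 on day 1 (limma adjusted p = 0.0187) and -0.23 ± 0.13 on day 2 (adjusted p = 0.203), and these differed by 0.61 ± 0.18 (adjusted p = 0.00843). The day 1 call was lost without F5 mutant replicate 3 (0.26, adjusted p = 0.149) or F4 mutant replicate 1 (0.35, adjusted p = 0.0570). This was 1 of 6 members, where 38.5% of all probe sets differed between the days in the same comparison. The oocyte and eggshell list in the mutants lay at 9.28 to 9.80 in F4 and 7.94 to 9.52 in F5 on day 1, and at 7.61 to 8.86 and 7.95 to 9.79 on day 2, and its part was not tested. The descendants read 5.69, 5.82 and 5.23 and then 6.53, 6.53 and 6.64 in F4 (0.016 ± 0.098), and 5.79 and 5.99 and then 6.61, 6.56 and 6.71 in F5 (0.052 ± 0.10). The F4 descendants overlapped their controls on day 1 and lay above them on day 2, and the F5 descendants overlapped theirs on both days.

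**Figure D5:**
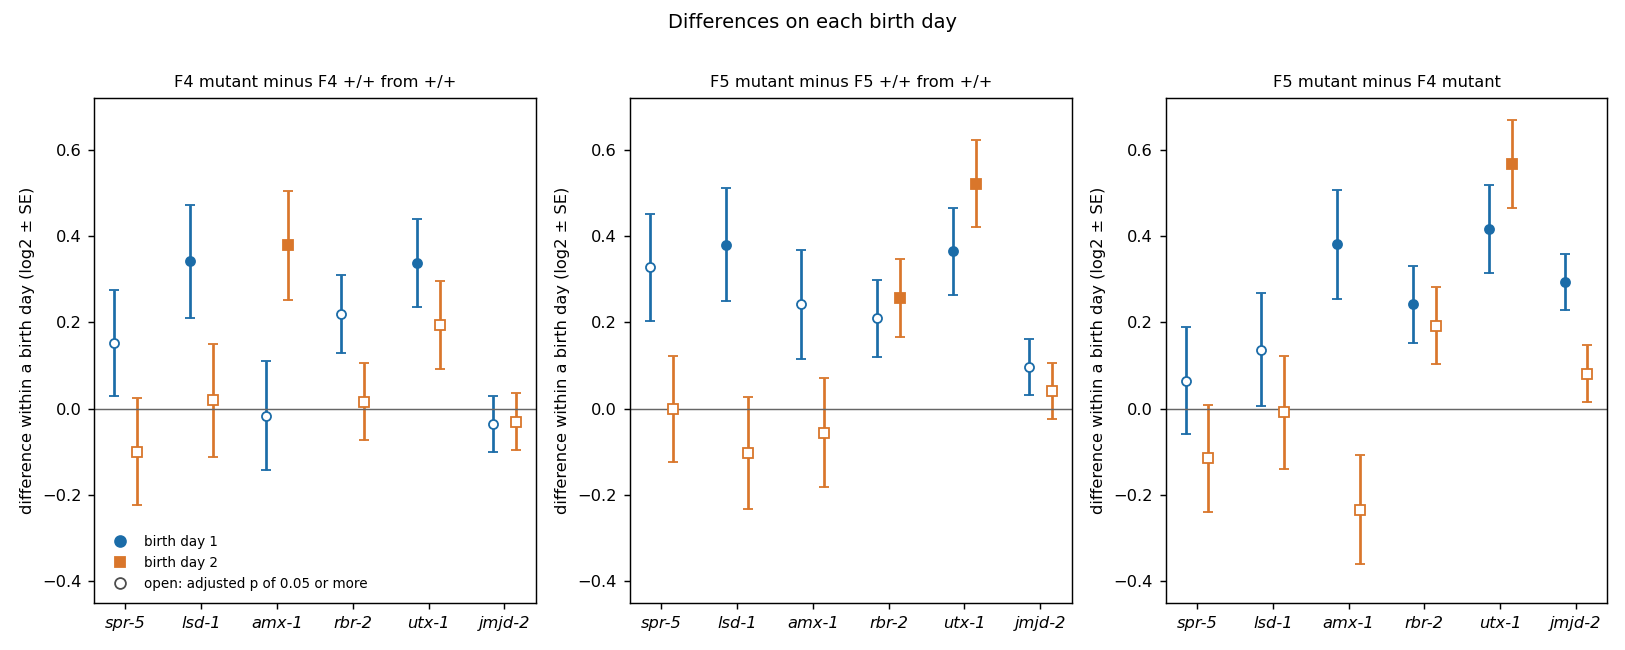
Difference in log2 intensity within a birth day (y axis, ± SE) for each demethylase (x axis) in 3 comparisons, with blue circles for day 1, orange squares for day 2 and filled symbols for an adjusted p under 0.05. utx-1 is above 0 on both days in all 3, and amx-1 from F4 to F5 mutants is 0.38 on day 1 and -0.23 on day 2.

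In the descendants as a whole, 0 of 6 members and 0 of 20806 probe sets were called against +/+ from +/+ by limma in either generation (0% in both), and 750 probe sets in F4 and 210 in F5 had an unadjusted p under 0.05. Within day 1 or day 2, 0 of 6 members were called in the F4 descendants, where 0.745% and 0.231% of all probe sets were. Of the members, the unadjusted p was lowest for utx-1 in F4 (0.123) and for lsd-1 in F5 (0.210). Between generations, 0 of 6 members fell in +/+ from +/+, +/+ from wdr-5 or mutants, where 4.96%, 4.76% and 3.82% of all probe sets were called lower. The median difference of the 6 members was 0.10 log2 in +/+ from +/+, 0.098 in +/+ from wdr-5 and 0.13 in mutants, beside 0.044, 0.073 and 0.053 for all probe sets.

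Other genes of these enzyme families moved in few cases. Of 10 further JmjC and amine oxidase genes, 8 were measured without ambiguity, and 2 of 8 rose in mutants of F4 and of F5. They were jmjd-1.2, a JmjC demethylase of lysines 9 and 27, with 0.29 ± 0.074 log2 in F4 (limma adjusted p = 0.0115) and 0.46 ± 0.074 in F5 (adjusted p = 2.62e-05), and psr-1, a JmjC protein first known as a phosphatidylserine receptor, with 0.32 ± 0.10 (adjusted p = 0.0428) and 0.54 ± 0.10 (adjusted p = 1.79e-04). The medians of the 8 were 0.012 and 0.029. From F4 to F5 in mutants, jmjd-5 rose by 0.30 ± 0.063 and jmjd-1.1 and jmjd-3.2 fell, by -0.34 ± 0.076 and -0.23 ± 0.082. In that comparison 13.5% of all probe sets were called higher and 3.82% lower.

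A further list holds partners of the LSD1 enzymes and the suppressors of the presenilin gene sel-12 that gave spr-5 its name. Of its 10 genes, 0 were called in F4 mutants, and 6 rose and 4 were not called in F5 mutants, with medians of 0.097 and 0.25 log2. In F5, hda-2, a histone deacetylase, rose by 0.55 ± 0.098 (limma adjusted p = 1.06e-04), spr-2, of the SET and NAP protein family, by 0.49 ± 0.10 (adjusted p = 5.95e-04), hda-3, another deacetylase, by 0.25 ± 0.059 (adjusted p = 0.00159) and spr-4, a zinc finger protein, by 0.25 ± 0.076 (adjusted p = 0.0110). spr-1, the CoREST homolog that binds LSD1 enzymes, was higher in F4 mutants than in F4 descendants by 0.34 ± 0.10 (limma adjusted p = 0.0311). Of all probe sets, 5.85% were called higher there. From F4 to F5, spr-3 rose in +/+ from +/+, +/+ from wdr-5 and mutants (0.30, 0.26 and 0.32), as did spr-4 (0.23, 0.24 and 0.36). In these groups 16.8%, 20% and 13.5% of all probe sets were called higher in F5.

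Subunits of the complexes that methylate lysine 4 were called mainly in F5. Of 14 genes, utx-1 included, 1 rose (utx-1) and 1 fell (wdr-5.1) in F4 mutants, and 8 rose and 1 fell in F5 mutants (median 0.21 log2). Apart from those named, the smallest p-values were those of set-2, the main methyltransferase of lysine 4 (0.48 ± 0.089, limma adjusted p = 1.39e-04), and dpy-30, a shared core subunit (0.32 ± 0.063, adjusted p = 2.54e-04). Of 14 other histone methyltransferases measured, 0 were called in F4 mutants, and 5 rose and 1 fell in F5 mutants. These include set-32 (0.32 ± 0.079), set-4 (0.33 ± 0.083) and prmt-5, an arginine methyltransferase (0.26 ± 0.073), and set-18, which fell by -0.56 ± 0.14.

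Of 12 genes linked to the demethylases in the literature, 0 were called in F4 mutants, and 4 rose and 2 fell in F5 mutants, with a median of 0.23 log2. lin-61, a reader of methylated lysine 9, rose by 0.29 ± 0.079 (limma adjusted p = 0.00540), hpl-2, a heterochromatin protein 1 homolog, by 0.32 ± 0.092 (adjusted p = 0.00866) and damt-1, a putative DNA adenine methyltransferase, by 0.34 ± 0.11 (adjusted p = 0.0154), while rsr-2 fell by -0.28 ± 0.099 (adjusted p = 0.0261). The higher counts of all these lists in F5 stand beside a background of 16.9% of probe sets called higher and 16.1% lower, against 4.77% and 5.53% in F4.

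The likeness of other genes to each demethylase was measured as Pearson's r over 35 arrays after removal of the mean of each birth day. The values share arrays, groups and normalization and are given as a description. The genes most like utx-1 were Y37A1A.2 (0.911), pkhm-2 (0.900) and ptr-8 (0.897), and 95% of all genes lay below 0.634. Once the mean of each group and day was removed, these were 0.631, 0.381 and 0.737. For rbr-2 they were drh-1 (0.858), fbxa-182 (0.818) and ttr-32 (0.809), and for jmjd-2 tgn-38 (0.882), his-2 (0.828) and T04C9.1 (0.826). With group and day means removed, these fell to 0.721, 0.5004 and 0.475 for rbr-2 and to 0.720, 0.248 and 0.370 for jmjd-2. The amine oxidases had lower maxima: dpf-3 (0.721), kin-21 (0.705) and clec-155 (0.702) for spr-5, C27C12.3 (0.674), Y39B6A.9 (0.670) and F22H10.4 (0.646) for lsd-1, and nssp-77 (0.770), hsp-16.21 (0.770) and gst-40 (0.768) for amx-1. With those means removed, they were 0.676, 0.641 and 0.705 for spr-5, 0.659, 0.556 and 0.495 for lsd-1, and 0.465, 0.632 and 0.683 for amx-1. Among the members the most alike were utx-1 and rbr-2 (0.776, and 0.451 once the mean of each group and day was removed). spr-5 was between -0.089 and 0.142 with each of the other 5.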

How the data were processed

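Total RNA of whole L3 larvae was labelled with biotin and hybridised to 35 arrays. The authors deposited 1 log2 intensity for each probe set and array, which the submitters' processing notes credit to RMA (robust multi-array averaging). Neither the RMA version nor the log base is given in the sources used here. Base 2 was inferred from how far the values extend. The 77 control probe sets were left out, which left 20806. Of these, 15504 were named by transcript accession, 4660 by a matched symbol and 600 by the deposited symbol alone, and 42 had no name. Group, generation and birth day came from the labels.

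A linear model with a mean for each of the 6 groups and a birth day term within each generation was fitted to every probe set in limma 3.58.1 (R 4.3.3), with empirical Bayes moderation along intensity and 27 residual degrees of freedom. A separate fit with a mean for each group and day (23 residual degrees of freedom) gave the differences within a day and their difference between days. Tests were two-sided, Benjamini-Hochberg adjusted over the 20806 probe sets, with a threshold of 0.05. The first fit was tested on simulated data, and the fit with a mean for each group and day was not. The alternatives covered the birth day term, a replicate block, quantile normalization, the samples fitted, a filter at the 25th percentile of mean intensity, array weights, the germline list mean as a covariate, each day alone and each array left out. A moulting list covariate, the removal of 3 F5 mutant arrays and the fits within a day that left out 1 array were chosen after seeing the data. The members and the gene lists were chosen with earlier results of these data known. Beside the 6 members, the genes named were the 3 most like each member and, of each list, up to 4 genes with the smallest p past the threshold in a mutant comparison. A gene of these lists is represented by its probe set of highest mean level.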

Additional observations from a re-analysis of the deposited data

Results flagged for a closer look

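Of 36 sets of 1 gene and 1 group, 7 held an array far from the others by Dixon's ratio (the gap to the nearest array over the range of the group, after removal of the day mean), and chance gives about 1 in 20. For spr-5 these were F4 +/+ from +/+ replicate 1 (4.18 log2, ratio 0.663) and F5 +/+ from wdr-5 replicate 2 (4.13, ratio 0.731), both low. For lsd-1 they were F4 +/+ from +/+ replicate 3, low (3.95, ratio 0.796), and F5 mutant replicate 1, high (5.16, ratio 0.753). For amx-1 it was F4 +/+ from wdr-5 replicate 3, low (5.23, ratio 0.702). For utx-1 they were F4 +/+ from +/+ replicate 1, low (4.60, ratio 0.744), and F5 +/+ from +/+ replicate 2, high (5.198, ratio 0.626). All of these arrays were kept in the fits.

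The difference of amx-1 between F5 and F4 mutants varied between the birth days by 0.615 log2 (limma adjusted p = 0.00843). In 4 other comparisons every array of the first group lay on one side of the other group's day mean on day 1 and on the opposite side on day 2, and the limma test of the difference between days did not pass. These were spr-5 in F4 mutants (0.252, adjusted p = 0.268), lsd-1 in F5 mutants (0.482, adjusted p = 0.403) and rbr-2 in F4 +/+ from wdr-5 (0.311, adjusted p = 0.157), each against +/+ from +/+, and amx-1 in F5 mutants against F5 +/+ from wdr-5 (0.328, adjusted p = 0.761).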

How the results depend on the processing

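Counts are of the 6 members called. The rise of utx-1 in F5 mutants was called in all 13 alternatives. With no birth day term the count was 0 of 6 in F4 mutants (1 as reported), 1 in F5 mutants (2), 1 from F4 to F5 in mutants (3) and 0 in both wild-type groups (1 each). With the germline covariate it was 1 in F5 mutants against either wild-type group (2 each), and 0 from F4 to F5 in +/+ from wdr-5. With the moulting covariate it was 1 in F5 mutants against either wild-type group, 1 in F4 mutants against F4 +/+ from wdr-5 (0), and 0 from F4 to F5 in both wild-type groups. Day 1 alone gave 1 in F5 mutants, 0 against the F5 descendants and 4 for the mean of both mutant differences (2). Day 2 alone gave 1 in F5 mutants, 1 for that mean, 1 from F4 to F5 in mutants and 0 in both wild-type groups. Array weights gave 3 from F4 to F5 in +/+ from +/+, of which utx-1 and amx-1 were higher and spr-5 was lower (-0.20, adjusted p = 0.0499), and 2 in +/+ from wdr-5, both higher. A shared birth day term and quantile normalization each gave 0 in the latter, and fitting only the groups compared gave 1 in mutants. Leaving out 1 array gave 0 to 1 in F4 mutants and 0 to 1 from F4 to F5 in +/+ from wdr-5. Moves between 2 and 3 members are not among the counts above. From F4 to F5 in mutants, rbr-2 was called in 10 of 12 fits without 1 array and in 7 of 13 alternative settings. In F5 mutants against +/+ from +/+, spr-5 was called in 1 of 12 fits without 1 array. For the difference between days (0 as reported) quantile normalization gave 1 in F4 mutants, and array weights gave 1 in F4 mutants, 1 in F4 +/+ from wdr-5 and 1 in F5 mutants. No direction of a called result reversed, and leaving out the 3 F5 mutant arrays moved no count of members. The causes were not tested.

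The counts of all probe sets called moved more widely over the alternatives and the fits that left out 1 array. They ran from 409 to 6335 in F4 mutants (2142 as reported), 2169 to 7402 in F5 mutants (6878), 599 to 3704 and 1750 to 7247 against the F4 and F5 descendants (2455 and 6294), 2229 to 9151 for the mean of both mutant differences (8401) and 0 to 4184 for the difference between them (2). From F4 to F5 they ran from 697 to 8265 in +/+ from +/+ (4522), 421 to 9092 in +/+ from wdr-5 (5144) and 88 to 6825 in mutants (3613). In the descendants they reached 10 in F4 and 2 in F5 (0 in both).

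The arrays carry replicate numbers, and same-numbered arrays did not deviate together: over 34 pairs the correlation of their deviations ran from -0.295 to 0.317 (median 0.0326), and 11 of 35 arrays correlated best with their own number. With the replicate block in place of birth day, the count from F4 to F5 in +/+ from wdr-5 went from 1 to 0 (utx-1 0.21, adjusted p = 0.0564), and no other count of members changed.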

Other observations

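The levels of the 6 genes differed between the birth days in both directions, over all groups together. On day 1 (17 arrays) and day 2 (18 arrays) the mean level was 4.44 ± 0.19 and 5.62 ± 0.14 log2 (SD) for spr-5, 5.82 ± 0.23 and 6.57 ± 0.16 for amx-1, and 4.54 ± 0.25 and 4.94 ± 0.088 for lsd-1. It was 5.96 ± 0.17 and 5.82 ± 0.14 for rbr-2, 5.02 ± 0.27 and 4.88 ± 0.27 for utx-1, and 4.69 ± 0.13 and 4.90 ± 0.053 for jmjd-2. The spr-5 value stood between the 29.3 and 42.3 percentiles of its own array on day 1 and between the 47.9 and 59.4 percentiles on day 2, so the shift was present in rank as well as in level. The median array percentile of utx-1 was 44.9 on day 1 and 34.4 on day 2, and that of amx-1 was 55.1 and 67.4. It was nearly the same on both days for lsd-1 (38.2 and 39.0) and rbr-2 (57.2 and 56.7). For jmjd-2 it was lower on day 2 (40.8 and 37.8), while the level was higher. The days were read as normalized separately, so these shifts were not tested.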
